A study of Arabidopsis thaliana with 4 samples.

Results

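Dehydrins are late embryogenesis abundant (LEA) proteins, very hydrophilic and largely unfolded, that share a lysine-rich stretch called the K-segment. They accumulate in drying seeds and in leaves and roots under cold, drought or salt, where they bind water, ions and membranes. Many of their genes are switched on by the stress hormone abscisic acid (ABA) or by the CBF/DREB factors of cold and drought. The probe annotation of the array names 6 genes of this family, of which 4 were taken here as members. They are COR47 (AT1G20440), LTI30 (AT3G50970), LEA (AT2G21490) and AT1G54410, set by locus with earlier results of these data known, out of 13356 genes that a probe set names alone. Each of the 4 genes had 1 probe set, so that choosing the one of highest mean changed nothing. COR47 and AT1G54410 lie on chromosome 1, LTI30 on chromosome 3 and LEA on chromosome 2 in the TAIR10.1 gene table.

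Signals came from 4 one-colour Affymetrix arrays of whole Arabidopsis thaliana seedlings, 2 of wild type (WT) and 2 of the mutant ced1. Both genotypes were in the gl1-Col0 background, which bears no leaf hairs, were 16 days old and had spent 6 h on plates with 40% polyethylene glycol (PEG), an osmoticum that draws water from the roots. The mutant ced1 is known from its study as an allele of the cuticle gene BODYGUARD with weak stress induction of the ABA synthesis gene NCED3. Neither gene was read here from a probe set that names it alone, so the genotype labels had no direct check. Seedlings without PEG were not analysed here, so every value is a level after stress and not a response to it. The labels call the replicates biological without saying whether separate plates were used, so the p-values below cover the spread of these arrays alone, which may be partly technical.

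Across probe sets, r of the log2 signals was 0.970 for the 2 WT arrays, 0.989 for the 2 ced1 arrays, and 0.839 to 0.874 for arrays of different genotype. Differences are given as ced1 minus WT of log2(signal + 16), tested with limma on the 13648 probe sets above a low-signal filter and adjusted by Benjamini-Hochberg, with a threshold of 0.05. Of these probe sets, 19.2% were called lower and 23.2% higher in ced1, together 42.4%, and their median difference was 0.07. Without ced1 array 1 the calls were 1426 lower and 1313 higher, and without ced1 array 2 they were 1329 and 1200, against 2626 and 3161 with all arrays. In bulk seedlings, fewer cells of a type and less RNA per cell cannot be told apart.

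After PEG, 3 of the 4 dehydrin genes were lower in ced1 than in WT, and AT1G54410 did not pass the test. Of all tested probe sets, 19.2% were called lower and 42.4% were called in either direction. LEA, 1 of the 3, had both ced1 signals under the level of the filter and entered the test through its WT arrays. The count of 3 is therefore no support for the group. COR47 and LTI30 stood in ced1 at 41.2% and 38.2% of their WT signal, LEA at 13.7% and AT1G54410 at 86.0%. The share for LEA has no settled size, because its ced1 signals were so low. For all 4 genes both ced1 signals lay under both WT signals, which held for 33.6% of the tested probe sets.

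**Figure D1:**
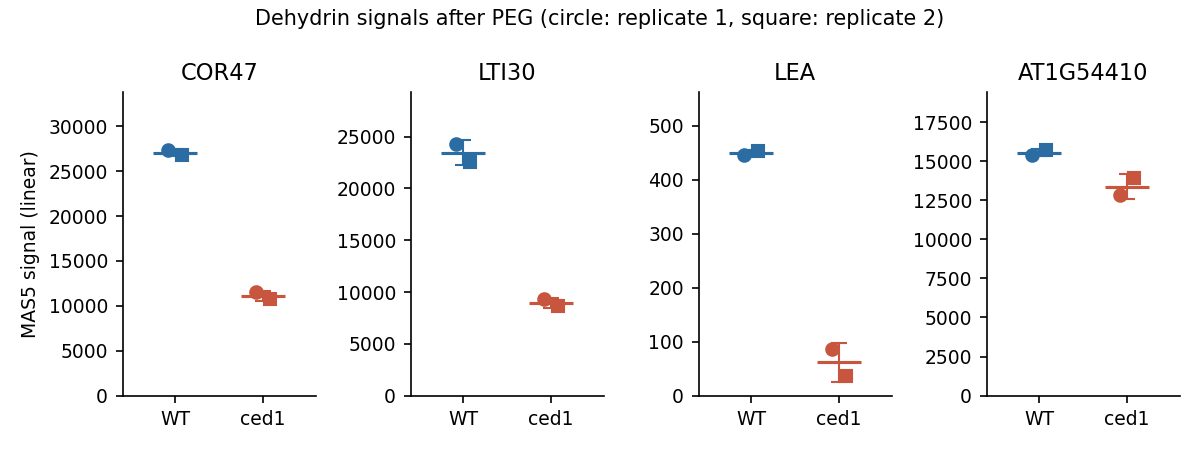
MAS5 signal (linear scale from 0, a separate axis for each gene) of the 4 dehydrin genes on each array, with WT in blue and ced1 in red; horizontal lines are means and bars are SD of 2 arrays. The ced1 means of COR47, LTI30 and LEA are 41.2%, 38.2% and 13.7% of the WT means, and that of AT1G54410 is 86.0%. The share for LEA has no settled size, because its ced1 signals lie under the level of the low-signal filter.

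COR47 codes for an acidic dehydrin that is induced by cold, drought and ABA and protects enzymes in freezing assays with purified protein. Its signal was 27324.1 and 26766.7 on WT arrays 1 and 2, and 11538 and 10751.4 on ced1 arrays 1 and 2. Both ced1 arrays were far below both WT arrays, and arrays of the same genotype lay close together. The mean was 27045.4 ± 394 (SD, n = 2) in WT and 11144.7 ± 556 (SD, n = 2) in ced1. The log2 difference was -1.28 ± 0.10 (SE), with a 95% interval of -1.52 to -1.03 (limma adjusted p = 0.000288). Any ced1 array set against any WT array gave a difference between -1.34 and -1.21. On the WT arrays COR47 stood at 86.5% and 89.4% of the highest signal recorded there, and whether its signal was compressed near the top of the range was not tested.

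LTI30, also called XERO2, codes for a basic dehydrin rich in K-segments and histidine that binds acidic membrane lipids and is induced by cold and ABA. Its signal was 24298.5 and 22576.6 on WT arrays 1 and 2, and 9303.8 and 8620.2 on ced1 arrays 1 and 2. The genotypes were again well apart. The means of 23437.5 ± 1218 (SD, n = 2) and 8962 ± 483 (SD, n = 2) gave a log2 difference of -1.39 ± 0.11 (SE), with a 95% interval of -1.64 to -1.13 (limma adjusted p = 0.000265). The difference between single arrays ranged from -1.49 to -1.28. The WT signals were 76.9% and 75.4% of the highest signal on their arrays.

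LEA, the symbol that the gene table gives to AT2G21490, codes for a dehydrin of the kind found in maturing seeds. Its signal was 445.8 and 453.6 on the WT arrays and 86.6 and 36.4 on ced1 arrays 1 and 2. The WT arrays were nearly equal, while the ced1 arrays differed from each other by 0.97 on the log2 scale and were both low. The means were 449.7 ± 5.52 (SD, n = 2) in WT and 61.5 ± 35.5 (SD, n = 2) in ced1. The log2 difference was -2.67 ± 0.32 (SE), with a 95% interval of -3.42 to -1.92 (limma adjusted p = 0.0010). Both ced1 signals lay under 102.7, the signal level of the filter, so that LEA entered the test through its WT arrays, and a low MAS5 signal cannot be told from absence. In the fit of all 22746 probe sets without the filter, LEA passed as well (limma adjusted p = 0.00482). The size of the difference depends on the offset and on single arrays: it was -2.06 with offset 64, -2.98 with offset 1, -3.15 without ced1 array 1 and -2.18 without ced1 array 2, and it passed each time.

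AT1G54410, also called HIRD11, codes for a small histidine-rich dehydrin that binds metal ions and is present in unstressed plants. Its signal was 15371.7 and 15703.4 on the WT arrays and 12802.9 and 13934.5 on the ced1 arrays. The ced1 signals were a little lower and the groups did not overlap, as for 74.7% of all tested probe sets in one direction or the other. The means were 15537.5 ± 235 (SD, n = 2) and 13368.7 ± 800 (SD, n = 2), and the log2 difference was -0.22 ± 0.11 (SE), with a 95% interval of -0.47 to 0.03 (limma adjusted p = 0.142). The difference passed when arrays were set to equal medians, at -0.39 (adjusted p = 0.0460), and with quantile normalization, at -0.30 (adjusted p = 0.0342). Its interval did not reach those of COR47, LTI30 and LEA, and a difference of -0.47 lies at its lower end.

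Set among the differences of all 13648 tested probe sets, 3.89% were as low as that of LTI30 or lower, 4.82% as low as that of COR47 and 33.3% as low as that of AT1G54410. No such share is given for LEA, whose difference has no settled size. Among the 168 tested probe sets with a mean signal of at least 10000, a level chosen after the values were seen, 19.0% were called lower and 67 were called higher, with a median difference of 0.28. Of these, LTI30 had the eighth lowest difference, COR47 the tenth lowest and AT1G54410 the thirty-ninth lowest. Both ced1 signals of LTI30, 9303.8 and 8620.2, lay under 10000, so LTI30 entered this set through its WT arrays. Its rank there is therefore no separate support for its difference. The plot of differences by setting shows the same order of the 4 genes in every setting in which all were tested, with LEA lowest, then LTI30, COR47 and AT1G54410.

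**Figure D2:**
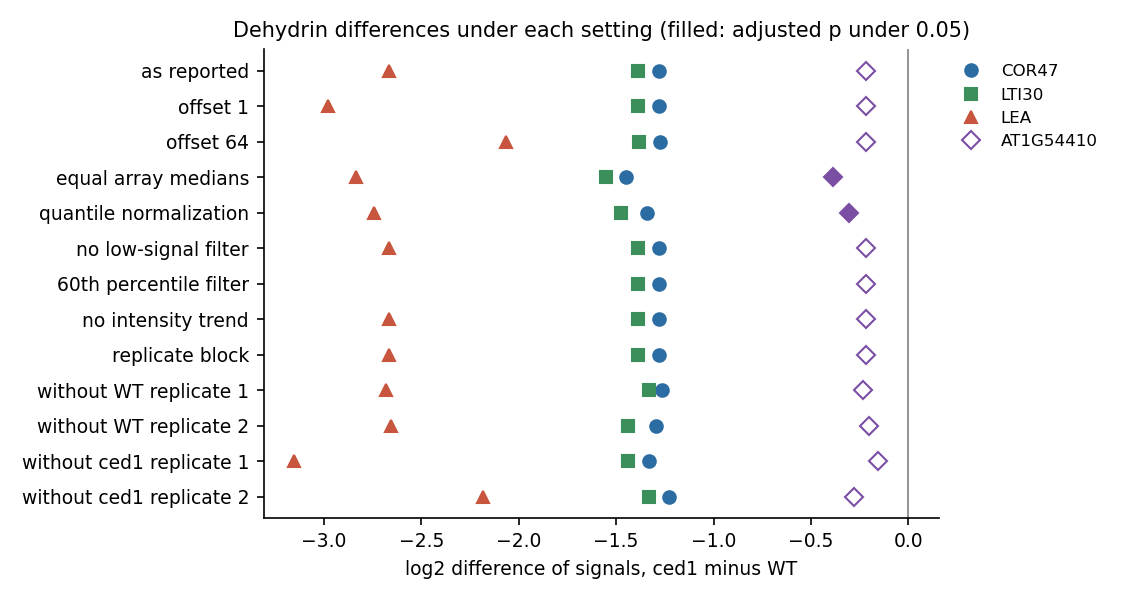
Log2 difference of signals (ced1 minus WT, horizontal axis) of the 4 dehydrin genes as reported and under each alternative setting (vertical axis); filled symbols have an adjusted p under 0.05. COR47 spans -1.45 to -1.23, LTI30 -1.55 to -1.33 and LEA -3.15 to -2.06, all filled, and AT1G54410 spans -0.39 to -0.16, filled with equal medians and quantile normalization; LEA has no value with the 60th percentile filter.

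Ratios of the members to each other on the same array do not depend on how arrays were scaled by a common factor, apart from the offset. The ratio itself mixes the binding strength of different probes, so only its change between genotypes can be read. The log2 ratio of AT1G54410 to COR47 was -0.83 and -0.77 on the WT arrays and 0.15 and 0.37 on the ced1 arrays. It was thus higher on both ced1 arrays, by 1.06 on average, with a pooled SD of 0.12 within genotypes. The ratio of AT1G54410 to LTI30 changed in the same direction, by 1.17 with a pooled SD of 0.13. LTI30 against COR47 was -0.17 and -0.25 on the WT arrays and -0.31 and -0.32 on the ced1 arrays, a change of -0.11 with a pooled SD of 0.04. Without WT array 1 this last change was -0.07 and without WT array 2 it was -0.14. LEA against COR47 was -5.89 and -5.83 on the WT arrays and -6.82 and -7.68 on the ced1 arrays, a change of -1.39 with a pooled SD of 0.43, and against LTI30 the change was -1.28. AT1G54410 against LEA changed by 2.45. The ced1 signals of LEA lie under the level of the filter, so the sign of these 3 changes can be read and their size cannot. With offset 64 they were -0.79, -0.68 and 1.85, without ced1 array 2 they were -0.95, -0.85 and 1.90, and without ced1 array 1 they were -1.82, -1.71 and 2.99. For each of the 6 pairs of genes the genotypes did not overlap, and the exact two-sided permutation test gave p = 0.333, also after adjustment over the 6 pairs, which is the smallest p that 2 arrays against 2 allow.

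**Figure D3:**
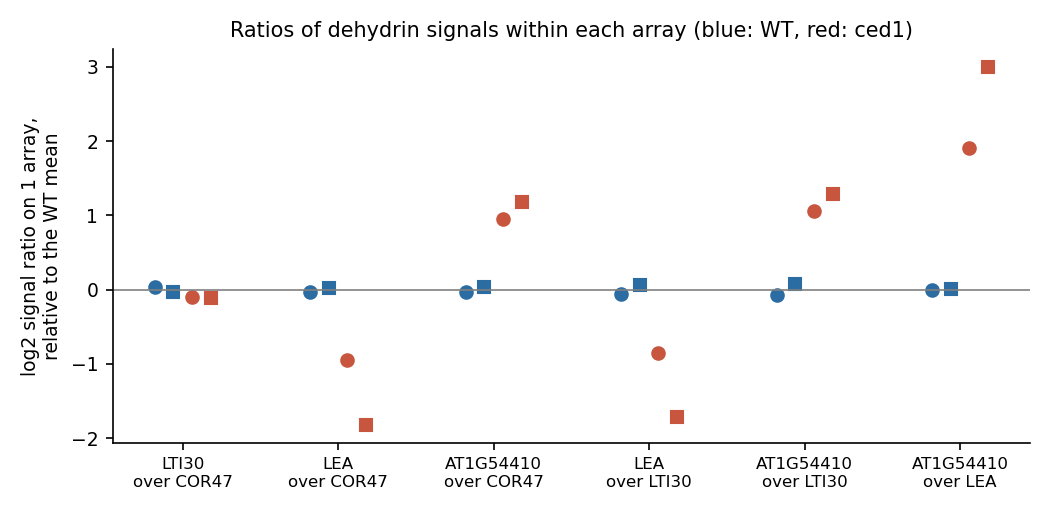
Log2 ratio of the signals of 2 dehydrin genes on 1 array, relative to the WT mean of that ratio (vertical axis), for the 6 pairs of genes; blue is WT, red is ced1, circles are replicate 1 and squares replicate 2. LTI30 over COR47 changes by -0.11, while the ratios of AT1G54410 to COR47 and to LTI30 are higher in ced1 by 1.06 and 1.17.

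Over the 4 arrays, the profiles of LTI30 and COR47 were close to each other. Likeness was measured as the root mean square distance between log2 profiles after each probe set's own mean was subtracted, among 7263 other tested single-gene probe sets. The distance between LTI30 and COR47 was 0.0599, which made COR47 the tenth nearest to LTI30, and LTI30 was the twentieth nearest to COR47. The distance from LEA was 0.711 to LTI30 and 0.759 to COR47, and that from AT1G54410 was 0.591 and 0.537. The ced1 signals of LEA lay under the level of the filter, so the size of its distances depends on the offset. With 4 arrays, a profile is mostly the difference between the genotypes, and nearness says little more than that this difference was alike.

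The 3 genes nearest to COR47 were AT2G02061, AT5G24890 and ALDH7B4, an aldehyde dehydrogenase gene of stress detoxification, at distances of 0.0202, 0.0221 and 0.0304. ALDH7B4 had signals of 16243.2 and 15036.8 in WT and 6714.2 and 6311.8 in ced1, a log2 difference of -1.26. Nearest to LTI30 were AT2G02870, AT3G63340 and AT4G29950, at distances of 0.0237, 0.0315 and 0.0422 and with differences of -1.36, -1.33 and -1.37. The ced1 signals of AT2G02061 and AT3G63340 lay under the level of the filter. The low ced1 signals of LEA differed by 0.97 on the log2 scale, and its distances include this gap. With the offset of 16, LEA had no neighbour as near: AT4G26010, ATG8H, a gene of autophagy, and UGT73C7, a glycosyltransferase gene, stood at 0.227, 0.229 and 0.237. Their differences were -2.49, -2.64 and -2.74, and the ced1 signals of UGT73C7 lay under the level of the filter. AT1G54410 was nearest to AT1G07990, AT1G28580 and AT3G11830, at 0.0167, 0.0170 and 0.0190, and none of these 3 passed the test, with differences of -0.24, -0.19 and -0.19.

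**Figure D4:**
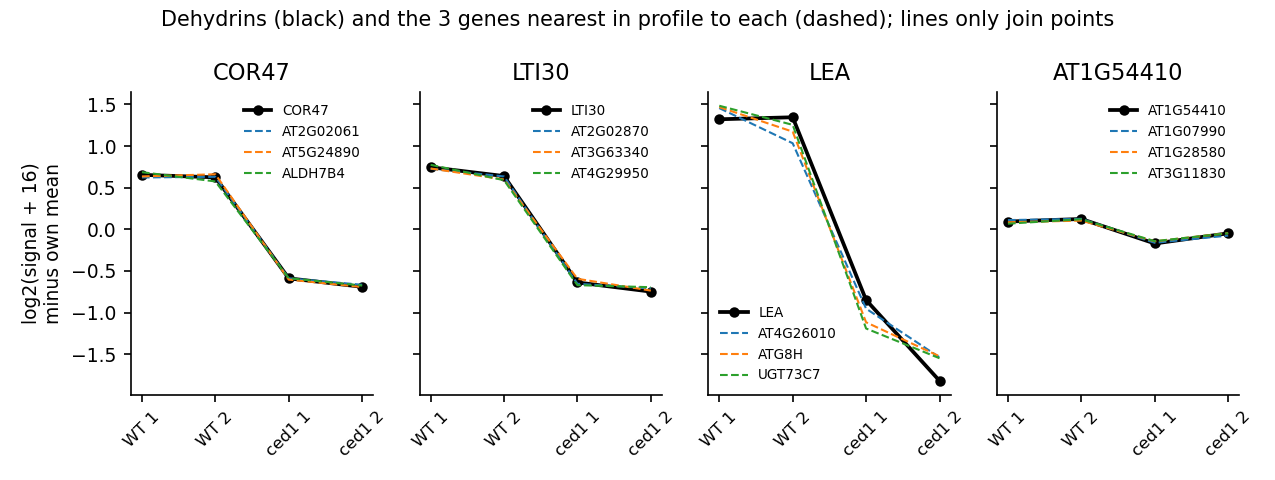
Log2(signal + 16) minus each probe set's own mean (vertical axis) on the 4 arrays (horizontal axis) for the 4 dehydrin genes in black and the 3 nearest single-gene probe sets of each, dashed; lines only join the points. The genes near COR47, LTI30 and AT1G54410 lie within 0.0422 of the member (root mean square). Those near LEA lie at 0.227 to 0.237, sizes that depend on the offset.

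The Arabidopsis dehydrin family list used here has 10 loci, of which 6 have a single-gene probe set in the annotation. ERD10, ERD14, RAB18 and XERO1 have none, so their levels are not known here. ERD10 lies next to COR47 and XERO1 next to LTI30 in the TAIR10.1 gene order, and whether the probes for COR47 or LTI30 also bind transcripts of related dehydrins was not tested. AT4G38410, another locus of the family list, had signals of 1390.1 and 1473.9 in WT and 365.8 and 508 in ced1. It was lower in ced1 by -1.69 ± 0.19 (SE) on the log2 scale (limma adjusted p = 0.000727). It had both ced1 signals under both WT signals, as did 33.6% of the tested probe sets. It passed under each of the 12 alternatives. AT4G39130 had signals of 44.5 and 5.2 in WT and 20.7 and 60.7 in ced1, which overlap, and was not tested because it lay under the filter. Of the 5 tested family genes 4 were lower, beside 19.2% of all tested probe sets, and LEA among them entered the test through its WT signal.

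Several other LEA genes had differences below those of the dehydrins. Of 35 listed, 25 have a single-gene probe set and 15 passed the filter. Among these 15 genes 13 were lower in ced1 and 2 did not pass, beside the 19.2% of all tested probe sets called lower, and over the alternatives 10 to 14 were lower. AT4G21020, with ced1 signals of 15.2 and 6.1, and AT4G36600, with 37.7 and 46, lay under the level of the filter in ced1 and entered the test through WT, so the count is no support for the list. AT2G44060 at -0.37 lost its call without ced1 array 1, without ced1 array 2, without the filter and without the intensity trend. The 4 with the largest differences were AT4G21020 at -4.53, AT2G42560 at -4.45, AT3G53040 at -3.99 and LEA18 at -3.21, beside -2.67 for LEA. Their order depends on the offset: with offset 64 they stood at -3.14, -3.98, -3.65 and -3.03, and LEA at -2.06. AT4G21020 was not tested with offset 1, with the 60th percentile filter, or without either WT array. At the other end AT2G23120 at -0.35 (adjusted p = 0.0608) and AT2G46140 at 0.11 (adjusted p = 0.613) did not pass, like AT1G54410. AT2G23120 passed with equal medians and quantile normalization, as AT1G54410 did, and also with the replicate block and without WT array 2. No test sets the dehydrins against the other LEA genes, so the lists are described side by side.

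**Figure D5:**
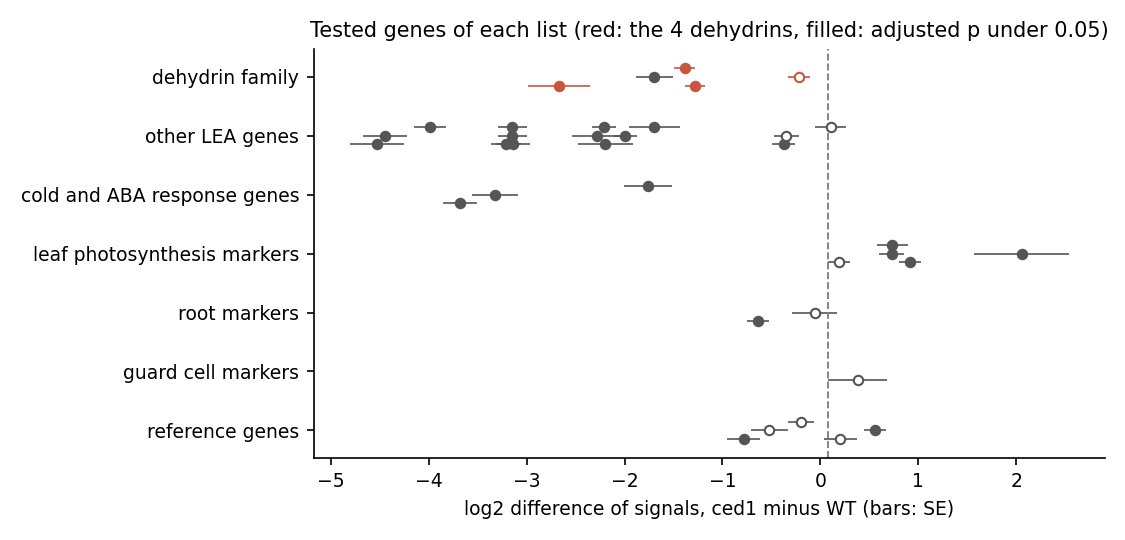
Log2 difference of signals (ced1 minus WT, horizontal axis, bars are SE) of the tested genes of each list (vertical axis); the 4 dehydrins are red, filled symbols have an adjusted p under 0.05 and the dashed line is the median of all tested probe sets, 0.07. The tested family dehydrins run from -2.67 to -0.22 and the other LEA genes from -4.53 to 0.11, and the sizes at the low end depend on the offset.

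Of 18 other cold and ABA response genes listed, only 3 have a single-gene probe set in the annotation. The levels of the others are not known here, and 8730 probe sets of the array are not listed in the annotation. All 3 named genes were lower, beside 19.2% of all tested probe sets called lower. They were the drought-induced linker histone gene HIS1-3 at -1.76, COR27 at -3.32 and AT4G33980 (COR28) at -3.68. None of the 28 listed upstream regulators, which include the ABF, CBF and DREB2 factors, the SnRK2 kinases, the PP2C phosphatases and ABA synthesis genes, has a single-gene probe set in the annotation. The dehydrins can therefore not be set beside the regulators here.

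Some leaf markers and 1 root marker moved with the genotype, and the other named tissue markers did not pass or were not tested. Of all tested probe sets, 23.2% were called higher and 19.2% lower in ced1. Of 20 leaf photosynthesis markers 5 are named and tested, of which 4 were higher in ced1. The summed signal of these 5 was 40946.2 to 53187.4 in WT and 78158.3 to 81648.2 in ced1. LHCB4.2, PSAN, PSBY and PSBW differed by 2.05, 0.91, 0.73 and 0.73. LHCB4.2 lay far apart on the WT arrays, at 2431.5 and 8395.7, and differed by 1.16 without WT array 1 and 2.95 without WT array 2. Without ced1 array 2, PSBY and PSBW no longer passed, which left 2 genes higher. Of 10 root markers 3 are named, with a summed signal of 9693.5 to 9787.6 in WT and 6064.4 to 6535.7 in ced1, nearly all of it from PYK10. PYK10, a myrosinase gene of roots, was lower at -0.64, a call lost without ced1 array 2, and EXPA18 at -0.06 did not pass. EXPA7, at 46.3 and 126.5 in WT and 78.9 and 51.7 in ced1, overlapped and was not tested. The guard cell marker FMA differed by 0.38 and did not pass (limma adjusted p = 0.339). Its difference was 0.79 without WT array 1 and -0.02 without WT array 2. None of 12 seed maturation markers or 7 vascular markers has a single-gene probe set. No named marker was listed at 0, and the part of tissue makeup in the dehydrin differences was not tested. Of 5 reference genes, AT2G28390 was lower at -0.78 and GAPC2 higher at 0.56. PEX4, AT4G34270 and AT5G46630 at -0.52, 0.20 and -0.20 did not pass. PEX4 passed as lower with equal array medians, at -0.69 (limma adjusted p = 0.0397), and with the replicate block (limma adjusted p = 0.0164). The PEX4 difference also depended on single WT arrays, at -0.29 without WT array 1 and -0.75 without WT array 2. AT2G28390 lost its call without ced1 array 1 and without ced1 array 2, and GAPC2 lost it without ced1 array 2.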

How the data were processed

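The deposited intensity values are 1 MAS5 signal per probe set on a linear scale, per the submitters' processing notes. No MAS5 version, scaling target or genome build was given in the labels used, so no coordinates are printed. No sequences of these genes were used here. Groups and replicate numbers came from sample titles. An offset of 16 was added before log2, and limma 3.58.1 under R 4.3.3 fitted genotype alone (lmFit, then eBayes with trend). The 9098 probe sets whose mean lay under the 40th percentile, a signal of 102.7, were left out. P-values were adjusted over the other 13648. Folds on this scale understate changes of low signals. The procedure was tested on simulated data.

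Genes were named through single-gene entries of the platform annotation (13513 probe sets; 503 name several genes and 8730 are not listed) and the TAIR10.1 gene table. Lists were described by counts. The 4 members and all lists were chosen with earlier results of these data known. Named genes are the members, the 3 nearest in profile to each and up to 4 tested genes per list with the largest differences; AT4G39130, AT4G36600, AT2G44060, EXPA7, AT2G23120, AT2G46140 and AT5G46630 were added after their values were seen. The number of arrays limits the precision.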

Additional observations from a re-analysis of the deposited data

How the results depend on the processing

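COR47, LTI30 and LEA passed the threshold and kept their direction in every alternative in which they were tested (12, 12 and 11). AT1G54410 was lower in all 12 and passed with equal array medians (-0.39) and quantile normalization (-0.30). Without each array in turn the differences ranged from -1.33 to -1.23 for COR47, -1.44 to -1.33 for LTI30, -3.15 to -2.18 for LEA and -0.28 to -0.16 for AT1G54410. Equal medians moved the median of all tested probe sets from 0.07 to -0.09, and the calls to 3437 lower and 2213 higher. Without each array the calls ranged from 1329 to 3333 lower and from 1200 to 4535 higher, where the single array of a genotype is taken to vary as the other genotype does. Over all alternatives 10 to 14 of the other LEA genes were lower. With offset 64 the changes in the ratio of LEA to COR47 and to LTI30 were -0.79 and -0.68, and that of AT1G54410 to LEA was 1.85. The low ced1 signals of LEA make these depend on the offset. Without each array, leaf markers higher ranged from 2 to 5, root markers lower from 0 to 1, reference genes lower from 0 to 2 and reference genes higher from 0 to 1. Reference genes lower were 2 with equal medians and 2 with the replicate block, in both cases AT2G28390 and PEX4. Why PEX4 passed there was not tested. Each member has 1 probe set, so the alternative with another could not be run.

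The replicate numbers are shared between genotypes, but nothing says that a number marks a shared day or batch. The deviations of same-numbered arrays correlated across probe sets with r = 0.0912. With the replicate block the differences of the 4 dehydrins were -1.28, -1.39, -2.67 and -0.22 with the same calls, and the counts were 2951 lower and 3608 higher.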

Other observations

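The nearest protein-coding genes on each side of the 4 dehydrin genes, up to 2 on a side in the TAIR10.1 gene order, were looked up after the values were seen. Of the 16 neighbours, 7 have a single-gene probe set and 3 were tested. Next to COR47, AT1G20430 and AT1G20410 differed by 0.43 ± 0.18 (SE) and 0.38 ± 0.22 on the log2 scale and did not pass (limma adjusted p = 0.0887 and 0.194). Beside AT1G54410, AT1G54440 differed by 0.35 ± 0.20 and did not pass (adjusted p = 0.186). AT3G50990 near LTI30, AT2G21480 and AT2G21510 near LEA and AT1G54420 near AT1G54410 had mean signals between 2.05 and 55.8 in both genotypes, under the filter.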
